A study of Mus musculus with 8 samples.

Results

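The retinoic acid pathway was followed through 9 genes in chromatin-associated RNA from primary mouse embryonic fibroblasts. They comprise the retinoic acid receptor genes Rarb, Rara and Rarg, the genes of the binding proteins Crabp1 and Crabp2, and those of the enzymes Dhrs3, Aldh1a2 and Cyp26b1 and the retinol receptor Stra6. They were taken by symbol from the 45706 gene rows of the count table, and all 9 were found. Knockout cells of the genotype crel-/-rela-/- (KO), which lack the NF-kB subunits cRel and RelA, were set against wild-type cells (WT). Both were of the C57BL/6 strain and embryonic stage. All cultures were kept overnight in medium with 0.5% serum. The 0 min libraries of both genotypes received no tumour necrosis factor (TNF), a cytokine that activates NF-kB, and the 15, 45 and 60 min libraries received 10 ng/ml. Each genotype and time had 1 library, 8 in all. Nothing says that they came from separate cultures or animals, or from how many embryos, so p-values measure the spread between these libraries. A difference between genotypes cannot be told apart from a difference between the 2 sources of cells.

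Retinoic acid is made from vitamin A in 2 oxidation steps. Retinol dehydrogenases such as RDH10 make retinaldehyde, and retinaldehyde dehydrogenases such as ALDH1A2 turn it into retinoic acid. DHRS3 reduces retinaldehyde back to retinol, and CYP26 enzymes break retinoic acid down. Inside the cell it is bound by CRABP proteins, of which CRABP2 hands it to the receptors. The receptors pair with RXR receptors on DNA and switch genes on when the ligand is bound. Rarb, Crabp2, Dhrs3, Stra6 and the Cyp26 genes are themselves known to respond to retinoic acid, and the pathway patterns limbs, hindbrain and trunk in the embryo.

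The best known DNA element of the pathway lies in the promoter of Rarb, the gene with the largest difference between genotypes among the 9. RefSeq windows of 300 bases, from 250 before to 50 after each annotated start (build GRCm38.p6), were on hand for 8 of the 9 genes, 17 windows in all, and none for Crabp2. Both strands were searched for direct repeats of the receptor recognition hexamer with spacers of 5, 2 or 1 bases (DR5, DR2 and DR1), and for the NF-kB consensus. The 250 bases before the starts of Rarb (chr14:16575477-16575726, minus strand) and Rara (chr11:98937446-98937695, plus strand) are shown because the results turn on these 2 genes. Capitals mark the DR5 repeat in Rarb and the NF-kB match in Rara.
Rarb promoter: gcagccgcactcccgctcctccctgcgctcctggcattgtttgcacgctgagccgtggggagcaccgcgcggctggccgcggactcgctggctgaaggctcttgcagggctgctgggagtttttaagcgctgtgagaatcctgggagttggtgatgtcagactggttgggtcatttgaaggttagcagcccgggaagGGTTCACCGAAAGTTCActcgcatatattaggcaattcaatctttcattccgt
Rara promoter: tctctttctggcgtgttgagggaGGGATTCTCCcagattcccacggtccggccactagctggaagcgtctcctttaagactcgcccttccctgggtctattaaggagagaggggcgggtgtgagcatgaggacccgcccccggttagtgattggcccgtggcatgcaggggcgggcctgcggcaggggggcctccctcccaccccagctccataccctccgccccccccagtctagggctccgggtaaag
The Rarb repeat spanned positions -53 to -37 from the start. A DR5 repeat was present in 32 of 32851 windows of the genome (0.0974%), and no other window of the 9 genes held one. DR2 and DR1 repeats were in no window of the 9 genes. The NF-kB match in Rara spanned positions -227 to -218 from the start at 98937696, and an overlapping window of the same gene repeats it. The Rara windows of the starts at 98939711 and 98964872 held no match. Cyp26b1 also had an NF-kB match, at -206 to -197 from its start, and such matches occurred in 1480 windows (4.51%). The windows of Rarg, Crabp1, Dhrs3, Aldh1a2 and Stra6 held no match. A match is a description and not a measured site.

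The libraries held 12359817 to 15607331 counts, of which 58.9% to 70.6% fell on 3 genes, Gm26917, Gm42418 and Malat1. A count of 0 allows up to 3 counts, or 0.192 to 0.243 counts per 1000000 of the library's total. Levels below are in CPM, counts per 1000000 after TMM scaling, which adjusts library sizes for a few very abundant transcripts. Counts over the targeted genes did not show their loss. Rela had 241 to 324 counts in KO and 324 to 704 counts in WT, and Rel had 308 to 633 counts in KO and 151 to 805 counts in WT. Counts over whole genes do not show which exons were deleted, so they do not check the genotype labels. Fibroblast markers were high throughout, with 10 markers summing to 9908 to 13310 CPM in KO and 9030 to 11540 CPM in WT. Markers of other cells differed between the genotypes. The 7 leukocyte markers summed to 5.88 to 7.68 CPM in KO and 41.7 to 56.3 CPM in WT, and Adgre1, a macrophage marker, was at 0 in 3 of 4 KO libraries. Cd68 made up most of the KO sum, with 67 to 93 counts in KO and 75 to 131 counts in WT. The 6 endothelial markers summed to 9.10 to 14.7 CPM in KO and 3.69 to 5.30 CPM in WT, where 2 of 6 passed the filter, Kdr and Tek, and these made up most of the sum in both genotypes. Pecam1 had 8, 1, 4 and 1 counts in KO and 0, 1, 8 and 6 counts in WT, and Cdh5, Tie1 and Emcn had at most 2 counts in the 7 libraries other than KO 0 min, where Cdh5 had 13 counts. The 6 skeletal muscle markers summed to 4.96 to 6.18 CPM in KO and 0.648 to 1.47 CPM in WT, nearly all from Des, the only 1 of the 6 to pass the filter, with Myod1, Myf5 and Pax7 at 0 in every library. The 7 neural markers overlapped, at 5.11 to 6.58 CPM in KO and 3.58 to 6.74 CPM in WT. The KO 0 min library stood apart, with 664 CPM over 8 cartilage markers and 8.08 CPM over 8 epithelial markers, against at most 252 and 1.05 CPM in the later KO libraries and at most 257 and 1.01 CPM in WT. Cartilage transcripts were not confined to it. In the later KO libraries Col2a1 had 91, 114 and 389 counts, against 14 to 27 in WT. Acan had 10, 18 and 61 against 3 to 6, and Col9a1 had 6, 4 and 19 against 0 to 1. Comp had 24, 13 and 43 against 14, 6, 11 and 6, so in counts only the KO 45 min library lay below a WT library. Col11a1, which made up most of the later sums, overlapped in counts between the later KO libraries and WT, as did Sox9, Matn1 and Pth1r. The part of these cells in the results below was not tested, and in bulk RNA fewer cells of a type and less RNA per cell cannot be told apart.

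Levels can be compared between genes only per length, so CPM per kilobase of exon was used for the order of the 9 genes. In KO it ran from Crabp1 (15.6 ± 2.7), through Rarg (8.36 ± 1.09), Rara (7.83 ± 3.41), Crabp2 (5.92 ± 1.20), Dhrs3 (4.47 ± 1.1), Rarb (1.61 ± 0.31), Aldh1a2 (0.614 ± 0.153) and Cyp26b1 (0.449 ± 0.184), to Stra6 (0.0206 ± 0.0167 CPM per kilobase, SD over 4 libraries at different times). In WT the order began in the same way, with Crabp1 at 23.6 ± 6.7, Rarg at 8.88 ± 2.05, Rara at 6.86 ± 2.50, Crabp2 at 2.46 ± 0.82 and Dhrs3 at 2.40 ± 0.28 CPM per kilobase. It then ran on with Cyp26b1 at 0.539 ± 0.336, Aldh1a2 at 0.293 ± 0.155, Rarb at 0.207 ± 0.083 and Stra6 at 0.0155 ± 0.0235 CPM per kilobase. Crabp1 led in both genotypes, and its libraries did not overlap with those of the next gene. The libraries of Rarg and Rara overlapped in both genotypes, as did those of Crabp2 and Dhrs3, and those of Aldh1a2 and Cyp26b1. Rarb stood above Aldh1a2 and Cyp26b1 in KO without overlap. In WT its libraries overlapped with those of Aldh1a2, the gene before it.

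**Figure D1:**
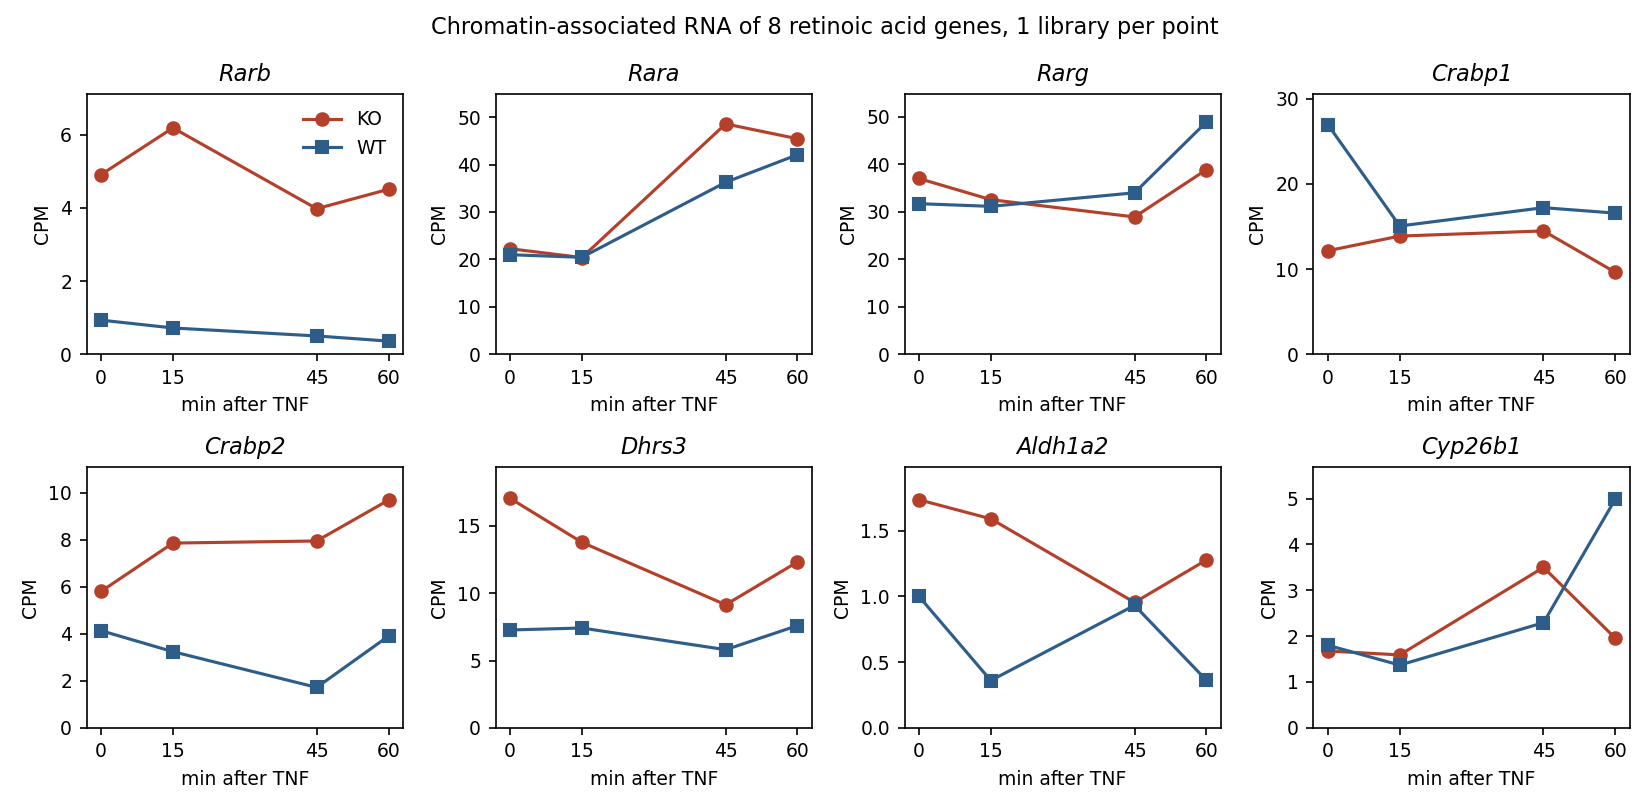
Level of 8 of the 9 genes in CPM (y axis, linear from 0) against minutes after TNF (x axis), with KO as red circles and WT as blue squares and 1 library per point. The KO points of Rarb, Crabp2 and Dhrs3 lie above all WT points, those of Crabp1 lie below, and Rara climbs between 15 and 45 min in both genotypes. Stra6, with at most 4 counts, is left out.

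The genotype comparison asked whether loss of RelA and cRel went with another level of these transcripts, whatever the time after TNF. Transcripts of Rarb, Crabp2 and Dhrs3 were higher in KO and those of Crabp1 were lower (edgeR quasi-likelihood test over all 8 libraries with time as a block, Benjamini-Hochberg adjusted p under 0.05, here called). Of the 9 genes, 8 passed the filter of 10 counts in 2 libraries, and 3 were called higher and 1 lower. Over all 15049 genes tested, 6.81% were called higher and 9.44% lower, and the median log2 fold change was 0.01, against 0.52 over the 8. The 9 genes were chosen with earlier results of these data known, so these shares and medians are descriptions. In the same 4 genes the KO and WT libraries did not overlap in CPM, which held for 5.84% of all tested genes above WT and 7.75% below. The 3 calls of higher genes were made under each of the 17 alternatives tried, including without the KO 0 min library. When libraries were scaled by their totals and not by TMM, the median of all genes shifted by -0.18 and the share of calls that were higher was 14.1% in place of 41.9%.

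Rarb (chromosome 14, 16430842 to 16575472, in mm10 as are all gene positions here), the receptor gene that retinoic acid itself induces, had 82, 70, 50 and 60 counts in KO at 0, 15, 45 and 60 min. It had 14, 10, 7 and 5 counts in WT at those times. Every KO library was thus above every WT library, and no WT library held more than 14 counts. The mean level of Rarb was 4.89 ± 0.94 CPM in KO and 0.629 ± 0.251 CPM in WT (SD, n = 4 libraries each). The fitted log2 fold change was 2.94 ± 0.24 (SE), a 7.65-fold higher level in KO, with an edgeR adjusted p of 4.16e-05. At single times the ratio of KO to WT was 5.26-fold at 0 min (95% exact interval 2.96 to 10.0), 8.59-fold at 15 min (4.40 to 18.7), 7.92-fold at 45 min (3.58 to 20.7) and 12.5-fold at 60 min (5.06 to 39.8). These intervals cover counting error only, and they overlapped at all 4 times, so the ratio was not shown to change after TNF. The fold was present before TNF was added, and without the 0 min libraries the log2 value was 3.19.

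The other receptor genes of the family were not called. Rara (chromosome 11, 98927818 to 98974942), the most widely expressed receptor gene, had a genotype log2 fold change of 0.16 ± 0.09 (adjusted p = 0.290, edgeR), and with total counts it was at -0.022. Its ratio of KO to WT was 1.34-fold at 45 min (95% interval 1.19 to 1.51), while the intervals at 0, 15 and 60 min included 1. Rarg (chromosome 15, 102234938 to 102257517), the receptor gene prominent in skin and cartilage, had 619, 369, 364 and 518 counts in KO and 476, 433, 475 and 677 counts in WT. It was at -0.07 ± 0.10 (adjusted p = 0.707, edgeR). The ratio of KO to WT for Rarg was 1.17-fold at 0 min (95% interval 1.03 to 1.32) and 0.795-fold at 60 min (0.708 to 0.892), so the libraries crossed over the hour. Among the 3 receptor genes, Rarb was thus the only one called.

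The binding protein genes moved in opposite directions. Crabp2 (chromosome 3, 87948666 to 87953376), whose protein hands retinoic acid to the receptors in the nucleus, had 97, 89, 100 and 129 counts in KO. It had 62, 45, 24 and 54 counts in WT. Its mean level was 7.83 ± 1.59 CPM in KO and 3.25 ± 1.09 CPM in WT (SD, n = 4 each), and no KO library was as low as any WT library. The log2 fold change was 1.26 ± 0.22, a 2.40-fold higher level in KO (adjusted p = 0.00415, edgeR). The ratio of KO to WT was smallest before TNF, at 1.40-fold (95% interval 1.01 to 1.96), and was 2.43-fold (1.68 to 3.55) at 15 min, 4.62-fold (2.94 to 7.55) at 45 min and 2.48-fold (1.79 to 3.48) at 60 min. The 45 min interval lies above that of 0 min, but these intervals cover counting error only. The change from 0 min to 45 and 60 min was not called different between the genotypes (adjusted p = 0.640, edgeR). The WT 45 min library, with 24 counts, was the lowest of the 8.

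Crabp1 (chromosome 9, 54764748 to 54773110), which encodes the cytoplasmic partner protein and had the highest level per length of the 9, had 203, 157, 182 and 128 counts in KO. It had 404, 209, 240 and 229 counts in WT. The mean was 12.5 ± 2.2 CPM in KO and 18.9 ± 5.4 CPM in WT (SD, n = 4 each). All 4 KO libraries lay below the lowest WT library, by little at 15 and 45 min. The log2 fold change was -0.59 ± 0.16 (adjusted p = 0.0333, edgeR). The difference was concentrated at 0 min, where KO was at 0.451 of WT (95% interval 0.379 to 0.535), and at 60 min, at 0.581 (0.464 to 0.724), while the intervals at 15 and 45 min included 1. The call was lost in 8 of 17 alternatives. It was at -0.38 without the KO 0 min library and also at -0.38 without the WT 0 min library. Without the KO or WT 45 min library it was at -0.70 for each, without the KO or WT 60 min library at -0.53 for each, without both 0 min libraries at -0.38, and with no time block at -0.60, none of them called.

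Among the enzymes, Dhrs3 (chromosome 4, 144892827 to 144928209), which lowers retinoic acid formation by returning retinaldehyde to retinol, was higher in KO. It had 285, 156, 115 and 164 counts in KO and 109, 103, 81 and 105 counts in WT. KO ranged from 9.14 to 17.1 CPM and WT from 5.80 to 7.59 CPM, without overlap, and the highest KO library was that of 0 min. The log2 fold change was 0.88 ± 0.13, a 1.84-fold higher level in KO (adjusted p = 0.00111, edgeR). The ratio was 2.35-fold at 0 min (95% interval 1.87 to 2.95), 1.86-fold at 15 min (1.44 to 2.41), 1.58-fold at 45 min (1.17 to 2.12) and 1.62-fold at 60 min (1.26 to 2.09). Every interval excluded 1. Without the KO 0 min library, the one richest in cartilage transcripts, the log2 value was 0.75 and still called.

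Aldh1a2 (chromosome 9, 71215789 to 71296243), the main retinoic acid synthesising enzyme of the embryonic trunk, was low. It had 29, 18, 12 and 17 counts in KO and 15, 5, 13 and 5 counts in WT. The log2 fold change was 1.06 ± 0.36 with an adjusted p of 0.0754 (edgeR), short of the threshold, and it was called in 1 of 16 alternatives, with no filter on low counts. The genotypes overlapped, since the KO 45 min library (0.954 CPM) lay below the WT 0 min library (1.00 CPM). The 95% intervals of the ratio of KO to WT included 1 at 0 min (0.900 to 3.48) and at 45 min (0.427 to 2.43). They excluded 1 at 15 min, at 4.42-fold (1.58 to 15.2), and at 60 min, at 3.53-fold (1.25 to 12.2), each with 5 counts in WT. Cyp26b1 (chromosome 6, 84571414 to 84593908), which breaks retinoic acid down, had 28, 18, 44 and 26 counts in KO and 27, 19, 32 and 69 counts in WT. It was at -0.21 ± 0.31 (adjusted p = 0.699, edgeR), and at 0.27 without the KO 60 min library and 0.26 without the WT 60 min library. At 60 min alone, KO was at 0.391 of WT (95% interval 0.239 to 0.623), while the intervals at the other 3 times included 1. Stra6 (chromosome 9, 58063788 to 58153996), the cell surface receptor for retinol carried in blood, had 1, 3, 1 and 1 counts in KO and 0, 0, 1 and 4 counts in WT. It did not pass the filter, and its level in both genotypes is at the limit of detection at this depth.

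**Figure D2:**
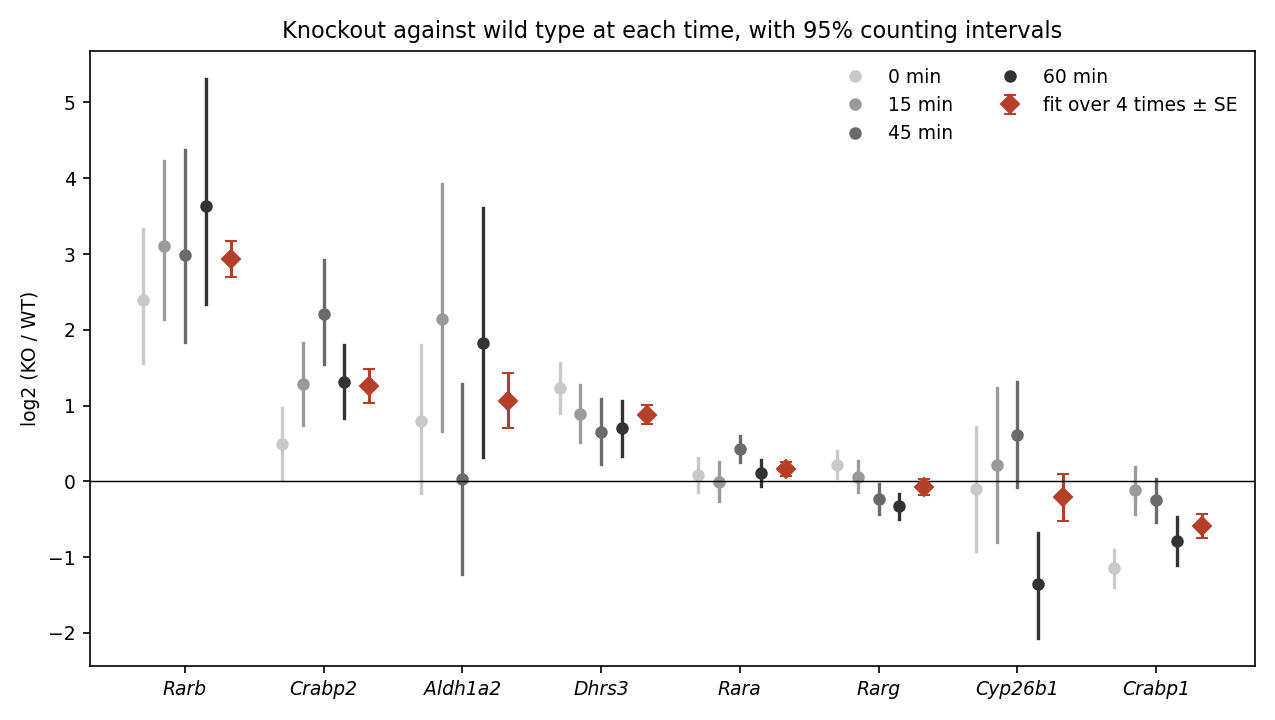
Ratio of KO to WT on a log2 scale (y axis) for 8 genes (x axis), with grey points for the libraries of each time and their 95% counting intervals, and red diamonds for the edgeR fit over all 4 times ± SE. Rarb lies between 2.39 and 3.64 at the 4 times, and Crabp2 and Dhrs3 lie above 0 at each time. Crabp1, Cyp26b1 and Rarg have intervals below 0 at some times only. Intervals above 0 at some times only are those of Rara, Rarg and Aldh1a2.

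By single times, a gene was counted as higher or lower where the ratio was at least 2-fold, its interval excluded 1 and the higher library had at least 20 counts. At 0 min, Rarb and Dhrs3 were higher in KO and Crabp1 was lower, where 1.91% of tested genes were higher and 3.37% lower. At 15 min Rarb and Crabp2 were higher and no gene of the 9 was lower, against 1.83% and 3.44% of tested genes. At 45 min the same pair was higher, against 2.75% of tested genes, and none was lower, against 5.58%. At 60 min the pair was higher again, against 2.43%, and Cyp26b1 was lower, against 5.70%. Rarb was therefore past the fold at all 4 times and Crabp2 at the 3 times after TNF. Single libraries have no replicate check, so these ratios compare libraries and not conditions.

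The late response to TNF set the average of the 45 and 60 min libraries over the 0 min library of the same genotype, and 1 of the 9 genes changed. Rara rose in both genotypes. It had 372, 231, 611 and 605 counts in KO at 0, 15, 45 and 60 min, and 315, 284, 506 and 582 counts in WT. The level was 22.3, 20.4, 48.6 and 45.4 CPM in KO and 21.0, 20.4, 36.3 and 42.1 CPM in WT. In each genotype the 0 and 15 min libraries were close to each other and both late libraries were well above them. The log2 response of Rara was 1.08 ± 0.19 in KO (adjusted p = 0.0156) and 0.90 ± 0.19 in WT (adjusted p = 0.0149, edgeR for both). Called higher were 1.32% of all tested genes in KO and 4.17% in WT, and called lower were 0.518% in KO and 1.31% in WT. None of the 9 was called lower by edgeR, DESeq2 or limma-voom in either genotype. In each genotype 1 had an unadjusted p under 0.05 in that direction (edgeR), Dhrs3 in KO and Crabp1 in WT. At the same unadjusted threshold, 1243 of all 15049 tested genes were lower in KO and 1193 in WT. The difference between the responses of Rara was 0.18 ± 0.26 (KO minus WT, adjusted p = 0.979, edgeR). A difference that misses the threshold does not show that the responses were equal. In both genotypes the call of Rara was lost with total counts, at 0.87 in KO and 0.69 in WT, and with no filter on low counts, at 1.09 in KO and 0.91 in WT. Total counts shifted the median response of all genes by -0.20 in KO and -0.21 in WT. Without an untreated library at later times, a TNF response cannot be told apart from an effect of time or handling.

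For the other 7 tested genes the late response was short of the threshold in both genotypes. Rarb stood at -0.21 ± 0.31 in KO and -1.10 ± 0.55 in WT, where its counts were few. Crabp2 stood at 0.60 ± 0.34 in KO and -0.56 ± 0.39 in WT, and Dhrs3 at -0.67 ± 0.24 in KO and -0.12 ± 0.27 in WT. Crabp1 stood at -0.02 ± 0.24 in KO and -0.67 ± 0.22 in WT (adjusted p = 0.113 in WT, edgeR), and was called in WT without the KO 45 min library and without the KO 60 min library, at -0.67 in each case. Cyp26b1 had the highest uncalled values, 0.69 ± 0.52 in KO and 1.01 ± 0.51 in WT. In the test of the difference between the responses, none of the 9 genes was called by edgeR, DESeq2 or limma-voom. By edgeR, 0.00664% of tested genes were called higher in KO and 0.492% lower. Of the 9 genes, 1 (Crabp2) had an unadjusted p under 0.05 in that test (edgeR), in the higher direction. At the same unadjusted threshold, 392 of all 15049 tested genes were higher and 757 lower.

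**Figure D3:**
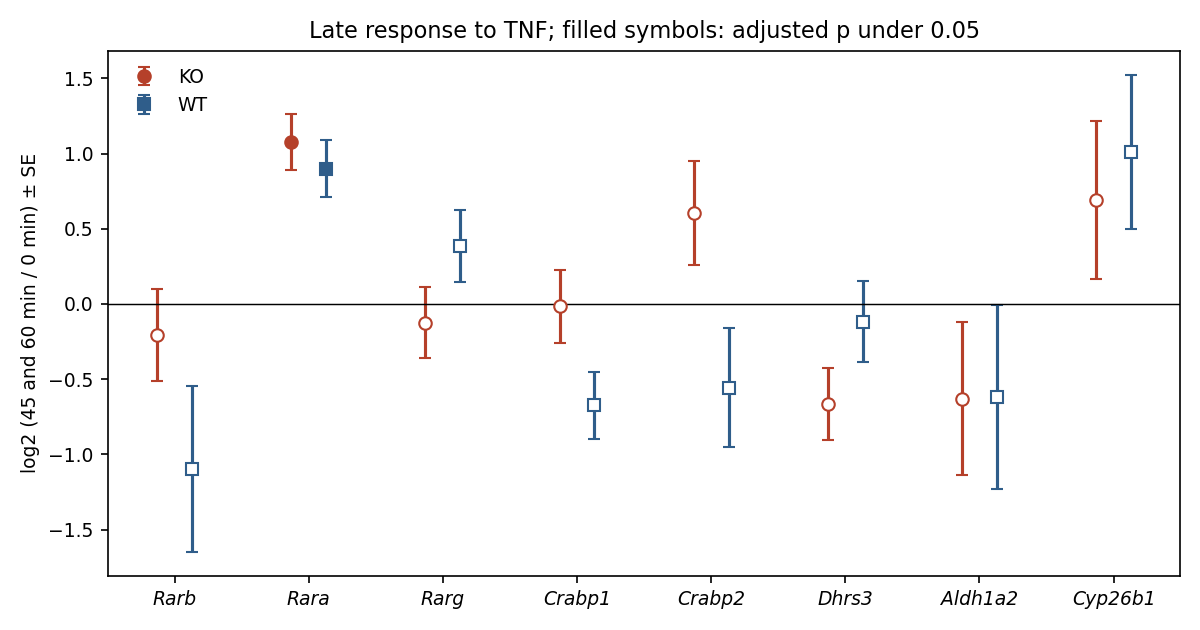
Log2 ratio of the 45 and 60 min libraries to the 0 min library (y axis, ± SE from edgeR) for 8 genes (x axis), with KO as red circles left of WT as blue squares, filled where the adjusted p was under 0.05. Only the Rara points are filled, at 1.08 in KO and 0.90 in WT.

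Other genes of the pathway were taken in 4 lists of 47 genes, of which 33 passed the filter. Across them 5 were called higher in KO and 3 lower, with a median log2 fold change of -0.02. Of all genes tested, 6.81% were called higher and 9.44% lower. No list test was made. The list of retinol and retinal metabolism had 1 gene higher and 2 lower of 9 tested. Rdh10, which makes retinaldehyde from retinol and works with DHRS3, had 264, 194, 235 and 264 counts in KO and 153, 119, 124 and 151 counts in WT. It was at 0.89 ± 0.11 (adjusted p = 0.000417, edgeR), almost the value of Dhrs3, and all KO libraries were above all WT libraries. Rdh10 and Dhrs3, whose enzymes run the exchange of retinol and retinaldehyde in opposite directions, were thus both higher in KO. The alcohol dehydrogenase genes Adh1 and Adh7, whose proteins can also oxidise retinol, were lower in KO. Adh7 had 12, 8, 7 and 6 counts in KO and 45, 27, 28 and 32 counts in WT, a log2 fold change of -1.93 ± 0.26 (adjusted p = 0.000847, edgeR). Adh1 had 24, 8, 15 and 1 counts in KO and 73, 37, 38 and 27 counts in WT, at -1.87 ± 0.33 (adjusted p = 0.00376, edgeR), and its call was lost with no time block (-1.80). Rdh11 and Rdh14 had the highest levels of the uncalled genes, at 0.44 and 0.05.

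Among receptors and coregulators, edgeR called 1 of 10 tested genes higher and none lower, against 6.81% and 9.44% of all tested genes. In the lower direction 1 of the 10 had an unadjusted p under 0.05 (edgeR), as did 2440 of all 15049 tested genes. The gene called higher was Rxrb, a partner of the retinoic acid receptors, at 0.33 ± 0.10 (adjusted p = 0.0444, edgeR), with 25.8 ± 2.6 CPM in KO and 20.5 ± 0.8 CPM in WT (SD, n = 4 each). Of 17 alternatives, 11 lost the call, including leaving out any 1 library other than that of KO 0 min (0.26 to 0.39 where lost). The coactivator gene Crebbp stood at 0.02. In the list of carriers, the nuclear receptor gene Ppard was at -0.19, and Rbp4 had no counts outside the KO 0 min library (7 counts) and the WT 60 min library (1 count).

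Fabp5, whose protein carries fatty acids and can carry retinoic acid to PPAR delta, behaved in another way. It had 105, 72, 72 and 78 counts in KO and 56, 98, 187 and 174 counts in WT. Its late response was -0.12 ± 0.24 in KO and 1.80 ± 0.26 in WT (adjusted p = 0.00125 in WT, edgeR). The difference, -1.91 ± 0.35 (KO minus WT, adjusted p = 0.0317, edgeR), was the 1 called among all pathway genes. Of 14 alternatives, 8 lost the call, including DESeq2 (-1.92), limma-voom (-1.90), total counts (-1.90), without the KO 45 min library (-1.90), without the KO 60 min library (-1.93) and with 15 min as baseline (-1.01).

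Of 11 tested genes known to respond directly to retinoic acid, 2 were called higher in KO and 1 lower. The shares over all tested genes were 6.81% and 9.44%. Nr2f2, an orphan receptor gene, had 254, 175, 182 and 183 counts in KO and 165, 106, 114 and 141 counts in WT, at 0.67 ± 0.12 (adjusted p = 0.00488, edgeR). Hoxd4, a positional gene, was lower, with 66, 37, 33 and 36 counts in KO and 157, 139, 105 and 113 counts in WT, at -1.52 ± 0.13 (adjusted p = 5.76e-05, edgeR). The called genes of this list thus did not share a direction. Meis1, a homeobox gene, was at -0.47 ± 0.18 late in KO and fell late in WT, to 0.500 of its 0 min level (adjusted p = 0.00657, edgeR), and the difference between the 2 was not called (adjusted p = 0.698, edgeR). Meis2 and Plat, the uncalled genes with the highest levels, had genotype values of 0.01 and -0.25.

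**Figure D4:**
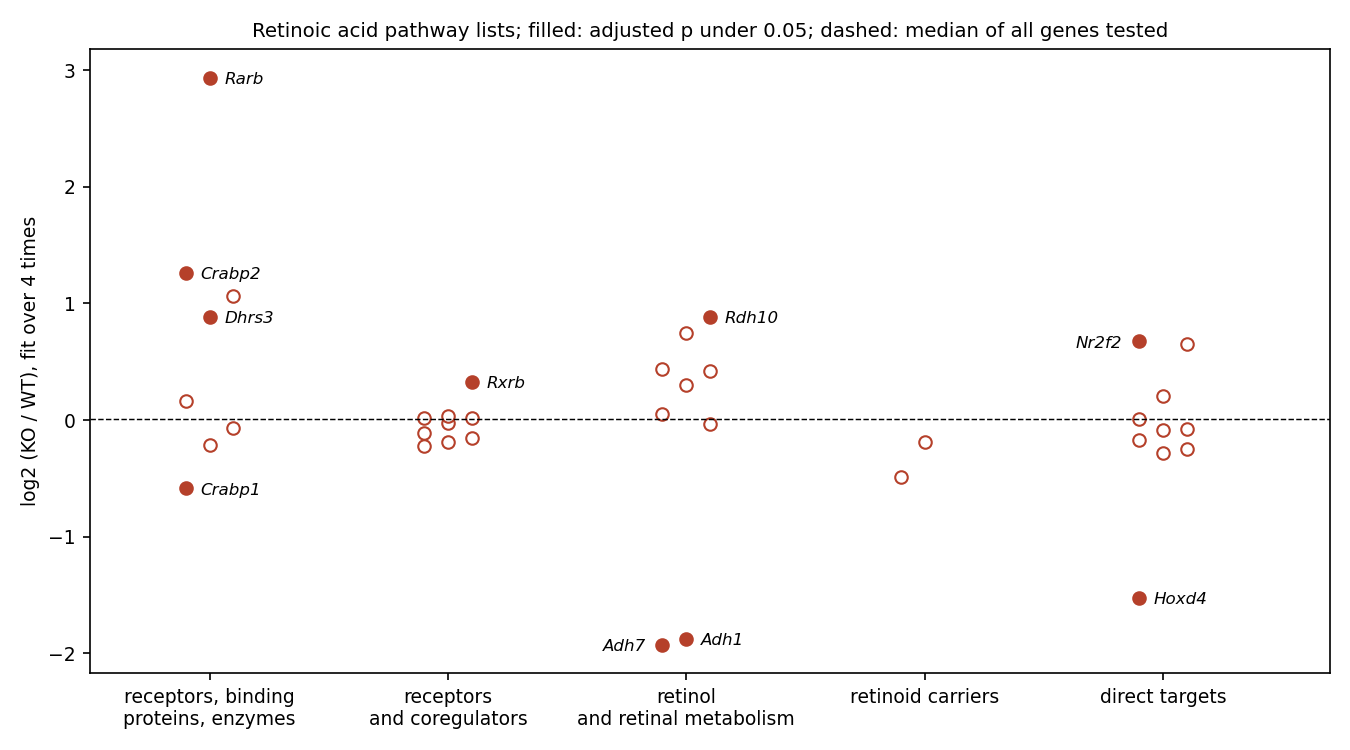
Fitted log2 ratio of KO to WT over 4 times (y axis) for tested genes of the 9 and of the 4 other lists (x axis; 3 genes not reported here are left out), 1 circle per gene shown, filled and named where the adjusted p was under 0.05, with the median of all tested genes dashed at 0.01. Rarb lies highest at 2.94 and Adh7 lowest at -1.93.

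Likeness in pattern was measured for the 8 genes that passed the filter. The correlations of log2(CPM + 1) given here are descriptions over 8 libraries that share depth and scaling. They span both genotypes, so genes that differ between KO and WT correlate through that difference. Likeness within a genotype was not measured. Over both genotypes, Rarb correlated with Dhrs3 (r = 0.89), Crabp2 (0.86) and Aldh1a2 (0.82) and negatively with Crabp1 (-0.64). Within KO, Rarb was highest at 15 min and Crabp2 at 60 min. Rara was unlike Rarb (-0.04) and most like Cyp26b1 (0.75). Of the 9185 other genes searched, each averaging 50 counts or more, the closest to Rarb were Ntng1 (0.99) and Adamts3 (0.99). Ntng1, a netrin-like adhesion gene, had 110, 86, 75 and 93 counts in KO and 42, 37, 26 and 25 counts in WT. Most like Rara were Mvd (0.99), a cholesterol synthesis gene, and Nuak2 (0.99), a kinase gene with 130, 96, 501 and 490 counts in KO and 107, 117, 387 and 442 counts in WT. The genes most like Crabp2 were Ermp1 (0.98) and Mmab (0.97), the gene most like Dhrs3 was Zfp865 (0.98), and those most like Crabp1 were Arsb (0.98) and Iqcb1 (0.96). Rarg was closest to Trip10 (0.96) and Mgat3 (0.95), and Cyp26b1 to Fam8a1 (0.97) and Fam84b (0.95).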

How the data were processed

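The authors deposited whole-number counts per gene for each of 8 libraries of chromatin-associated RNA, ribosome-depleted, stranded and single-end per the labels' protocols. The submitters' processing notes name cutadapt 1.12, STAR, featureCounts 1.5.0 and DESeq2, and the build mm10. The sources used here do not give the strand setting, the annotation release or how multi-mapping reads were handled. The deposited length (another value, in exon bases) equalled the merged exon length for all 9 genes, and no exon base of theirs was shared with another gene row.

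Symbols were matched by gene identifier for 98.77% of rows. No pair of libraries was a duplicate (chi-square per degree of freedom at least 7.73). CPM values are counts per 1000000 of TMM-adjusted library size (factors 0.817 to 1.21). The filter, 10 or more counts in 2 or more libraries, left 15049 genes for the quasi-likelihood test of edgeR 4.0.16 (R 4.3.3). The genotype fit blocked on time, with 3 residual degrees of freedom. The late responses came from 6 cell means with 2, in which 45 and 60 min stand in for replicates and the lone 0 min libraries are assumed to vary like the others. Standard errors are the log2 fold change over the square root of F. Ratios of 2 libraries carry exact Clopper-Pearson intervals at 95%, which cover counting error only. The fits were also run on simulated counts, drawn independently for each library with no differences beyond those put in. Such counts do not cover different times that stand in for replicates.

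Named genes are the 9, every gene of 4 further pathway lists called in a comparison, and the 2 uncalled genes per list with the highest level. For likeness they are the 2 genes with the highest Pearson r among those with at least 50 mean counts, for members with at least 20, without predicted gene models. Values of 4 genes that these rules name are not reported here. The members, lists and tests were chosen with earlier results of these data known. Alternatives were RLE scaling, total counts, other filters, DESeq2 1.42.0, limma-voom (limma 3.58.1), no time block, subsets of times, other baselines and leaving out each library. Promoter sequences are RefSeq's, build GRCm38.p6, the assembly of mm10. Figures were drawn with matplotlib 3.10.9.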

Additional observations from a re-analysis of the deposited data

Results flagged for a closer look

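Crabp2 lay on opposite sides of the 0 min library in the 2 genotypes after TNF. All 3 later KO libraries lay above the KO 0 min library, and all 3 later WT libraries lay below the WT 0 min library. The WT 60 min library was below by little, at 3.90 CPM against 4.13 CPM. Each genotype has a single 0 min library. The test of the difference between the late responses gave 1.16 ± 0.52 (log2, KO minus WT) with an edgeR adjusted p of 0.640, so it was not called. Without the WT 60 min library it was 1.87 and called (adjusted p = 0.0438, edgeR). Over all alternatives its adjusted p ran from 0.0438 to 1, and its value was 0.37 with 15 min as baseline.

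Fabp5 was picked out by the called difference between the genotypes in its late response, -1.91 (log2, KO minus WT). The response was -0.12 in KO and 1.80 in WT. The adjusted p of the difference was 0.0317 (edgeR), and 0.00384 to 0.603 over its alternatives.

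Dhrs3 in the WT 45 min library, at 5.80 CPM from 81 counts, was far from the other 3 WT libraries for their range on the log2(CPM + 1) scale (0.835 of the range). On the linear CPM scale the gap was 0.819 of the range, which falls short of the critical value of Dixon's test. Such a gap was looked for in 16 sets of 4 libraries, and chance gives it in about 1 set in 20. The libraries of a set are different times.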

How the results depend on the processing

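Of 475 recomputed log2 values of the 9 genes, 441 kept their direction and side of the threshold, 12 lost a call, 4 gained one and 18 changed sign, none of them a called value. The count called higher in KO over the 4 times was 3 in 16 of 17 alternatives and 4 with no filter. The count called lower, 1, was 0 with no time block and without both 0 min libraries, and 0 to 1 with single libraries left out. The count called higher late, 1 in each genotype, was 0 in each with total counts and with no filter. Leaving out single libraries gave 0 to 1 called lower late in WT and 0 to 1 called higher in the difference (KO minus WT). Sign changes for genotype were Rara at -0.022 with total counts, and, with single libraries left out, Rarg from -0.17 to 0.022 and Cyp26b1 from -0.53 to 0.27. Late in KO, leaving out single libraries moved Rarg from -0.35 to 0.072 and Crabp1 from -0.34 to 0.25, and a 15 min baseline put Rarg at 0.059. Late in WT, it moved Dhrs3 from -0.33 to 0.046, and a 15 min baseline put Crabp1 at 0.17 and Aldh1a2 at 0.83. For the difference, it moved Aldh1a2 from -0.53 to 0.84 and Cyp26b1 from -0.79 to 0.35. Aldh1a2 was at 0.012 with total counts and 0.11 with limma-voom, and Crabp1 at -0.37 with a 15 min baseline. The cause was not tested.

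Over all genes, genotype calls ran from 359 to 1435 higher (1025 as reported) and 708 to 2902 lower (1421). Late calls ran from 8 to 706 higher and 9 to 438 lower in KO (198 and 78), and 248 to 1097 higher and 30 to 572 lower in WT (628 and 197). Those of the difference ran from 0 to 19 higher and 14 to 179 lower (1 and 74). With total counts the calls that were higher made up 26.8% in place of 71.7% late in KO, and 52.1% in place of 76.1% late in WT. Late responses without their own 0 min library cannot be estimated. The labels give no replicate numbers. The genotype fit as reported pairs the KO and WT libraries of each time through the time block, and with no time block 359 genes were called higher and 708 lower. Depth limits the low genes: Rarb had under 20 counts in every WT library, and its fold at 60 min had an interval of 5.06 to 39.8.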
